A study of Homo sapiens with 9 samples.

Results

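The glucocorticoid receptor gene NR3C1 and 6 classical glucocorticoid target genes that androgen can also regulate, SGK1, ZBTB16, TSC22D3, KLF9, DUSP1 and CEBPD, were followed through androgen treatment of LNCaP cells with and without the compound MEL-6. The 7 genes were found by their symbols among 25142 entries of the expression table, and 6 of them passed the filter on low values that left 13295 genes for testing. LNCaP cells derive from a lymph node deposit of a human prostate carcinoma and respond to androgen. All cells were kept for 24 h in medium with 5% charcoal-treated serum, which is low in steroid hormones. They were then treated for 18 h in 3 groups of 3 biological replicates each. These were 1 nM of the synthetic androgen R1881 together with 10 µM MEL-6, 1 nM R1881 alone, and DMSO vehicle. MEL-6 is known here only by its code name, and no cells given MEL-6 without R1881 were analysed here. Polyadenylated RNA was sequenced, and levels are given as RPKM, read counts scaled by transcript length and by the size of the library. Changes are differences of log2(RPKM + 0.5) with their standard error, tested with limma over all genes, and a change is called at an adjusted p below 0.05.

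The glucocorticoid receptor is a hormone-activated transcription factor that cortisol switches on, and it belongs to a family of steroid receptors with closely related DNA-binding domains. Several of them bind as dimers to the same kind of palindromic DNA element, which in its ideal form reads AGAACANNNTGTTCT. A gene near such elements can therefore answer to cortisol in one cell and to testosterone in another.

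RefSeq promoter windows on GRCh38.p14, the 250 bases before each annotated transcription start, were matched for 5 of the 7 genes, with 16 windows in all. ZBTB16 and CEBPD had no match. The ideal element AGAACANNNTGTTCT, searched on both strands, was in none of the 16 windows and in 1 of 35116 windows of all genes (0.00285%). A single arm of it, AGAACA or its reverse complement TGTTCT, was also in none of the 16, against 12.4% of all windows. Counted by gene, it was in none of the 5, against 14.8% of all genes. The 16 windows are not independent: NR3C1 had 7, TSC22D3 4, SGK1 3, and KLF9 and DUSP1 1 each, and some windows of the same gene overlap. The palindrome TGACGTCA, the element of cyclic AMP-responsive factors, was in 1 of the 16 windows, that of DUSP1, starting 125 bases before its transcription start, against 1.65% of all windows. This search says only which letters stand in these windows. The windows below are those of the gene among the 7 with the largest change (SGK1, its annotated start nearest the gene's 3' end), of the gene that moved against the others (TSC22D3, likewise) and of the gene with a match (DUSP1). Each reads 5' to 3' on the minus strand, the strand of these genes, and capitals mark TGACGTCA.
SGK1, chr6:134174867-134175116: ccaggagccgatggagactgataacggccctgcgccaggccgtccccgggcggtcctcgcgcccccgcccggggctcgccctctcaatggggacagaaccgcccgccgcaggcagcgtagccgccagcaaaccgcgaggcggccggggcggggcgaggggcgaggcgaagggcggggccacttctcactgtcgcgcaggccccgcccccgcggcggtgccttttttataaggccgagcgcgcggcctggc
TSC22D3, chrX:107716509-107716758: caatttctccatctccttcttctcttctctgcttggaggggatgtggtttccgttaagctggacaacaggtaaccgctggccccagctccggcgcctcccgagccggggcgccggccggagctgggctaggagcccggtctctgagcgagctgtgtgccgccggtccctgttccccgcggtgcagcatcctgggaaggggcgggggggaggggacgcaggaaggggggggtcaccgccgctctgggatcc
DUSP1, chr5:172771196-172771445: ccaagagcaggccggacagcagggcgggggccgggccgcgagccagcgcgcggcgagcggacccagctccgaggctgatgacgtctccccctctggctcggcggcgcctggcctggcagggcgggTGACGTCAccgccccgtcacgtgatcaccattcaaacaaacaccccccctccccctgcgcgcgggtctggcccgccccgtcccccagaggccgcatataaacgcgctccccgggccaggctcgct
The windows of SGK1, TSC22D3 and DUSP1 were 76.0%, 68.4% and 74.4% G and C. Gene positions in the rest of the text are those of the deposited table, on hg19.

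The markers matched the labelled prostate line. All 8 luminal markers passed the filter. They summed to 1515 to 1563 RPKM with R1881 and MEL-6, 4218 to 4402 RPKM with R1881 and 1197 to 1254 RPKM in vehicle. KLK3 alone averaged 2220 RPKM with R1881 and 308 RPKM in vehicle. The luminal markers did not all move with their sum. For R1881 against vehicle 5 were called higher and 3 lower. With MEL-6 against R1881, 1 was higher, 5 were lower and 2 uncalled. Against vehicle the MEL-6 group had 3 higher, 3 lower and 2 uncalled. The 3 basal markers summed to at most 0.347 RPKM, with KRT5 and TP63 at 0 in every library, and the 3 leukocyte markers to at most 0.179 RPKM, with PTPRC and CD3E at 0. The 4 fibroblast markers, mostly COL1A1, summed to 3.22 to 3.58 RPKM with R1881 and MEL-6, 2.12 to 2.22 RPKM with R1881 and 2.49 to 3.06 RPKM in vehicle, with COL1A2 at 0. COL1A1, which alone of them passed the filter, was called higher with R1881 and MEL-6 than with R1881 (log2 change 0.53) and vehicle (0.31). The 2 endothelial markers, all from VWF with PECAM1 at 0, summed to 0.594 to 0.806 RPKM with R1881 and MEL-6, 0.388 to 0.486 RPKM with R1881 and 0.928 to 1.22 RPKM in vehicle. VWF was called lower with R1881 than in vehicle (-0.74) and higher with R1881 and MEL-6 than with R1881 (0.38). The part of these markers in the results was not tested. The 3 neuroendocrine markers, CHGA, SYP and ENO2, of which ENO2 made up most, summed to 52.5 to 59.4 RPKM with R1881 and MEL-6, 27.4 to 29.8 RPKM with R1881 and 42.7 to 46.1 RPKM in vehicle. Each library's depth relative to vehicle replicate 1 came from the most common ratio between their low values. It was 0.601 to 1.08 with R1881 and MEL-6, 1.18 to 1.69 with R1881 and 0.651 to 1.0 in vehicle. With these depths, the values of 41.4% of 2889 low genes were whole multiples of 1 step across libraries, within 0.005 steps. All 3 R1881 libraries were deeper than the other 6, and the total read numbers are not given in the sources used here. In RNA from whole wells, a changed share of cells and a changed level per cell cannot be told apart.

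NR3C1, which encodes the glucocorticoid receptor (chromosome 5, 142657496 to 142815077), was near the lower end of detection in every group. Its levels were 0.0555, 0.0926 and 0.0352 RPKM with R1881 and MEL-6, 0, 0.00943 and 0.0132 RPKM with R1881, and 0.0778, 0.0513 and 0.0272 RPKM in vehicle. By the step size of its values these were 15 reads over the 3 libraries with R1881 and MEL-6, 3 reads with R1881 and 12 reads in vehicle. All 3 R1881 libraries were below every library of both other groups, which overlapped each other, although the R1881 libraries were the deepest. The gene failed the filter of 0.5 RPKM in 3 libraries and was not tested in the 3 comparisons. Fitted without that filter on log2(RPKM + 0.5), its changes were -0.12 ± 0.050 for R1881 against vehicle (SE, adjusted p = 0.109), 0.14 ± 0.050 for R1881 with MEL-6 against R1881 (adjusted p = 0.055) and 0.023 ± 0.050 for R1881 with MEL-6 against vehicle (adjusted p = 0.802), none past the threshold of 0.05. The added 0.5 RPKM is far above these levels, so these log2 changes understate the differences. The ratios of mean RPKM in the same comparisons were 0.145, 8.10 and 1.17, resting on the few reads above.

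Of 8 other steroid receptors and cortisol enzymes, 4 passed the filter. For R1881 against vehicle 0 were higher, 3 lower and 1 uncalled (median log2 change -0.51), for R1881 with MEL-6 against R1881 3 were higher, 0 lower and 1 uncalled (0.64), and for R1881 with MEL-6 against vehicle 1 was higher, 1 lower and 2 uncalled (0.27). The medians over all tested genes in the same comparisons were -0.12, 0.075 and -0.012. The shares of all tested genes called higher were 14.5%, 31.4% and 17.2%, and those called lower 31.3%, 20.6% and 20.8%. NR3C2, the mineralocorticoid receptor, which binds cortisol and aldosterone, averaged 1.66 ± 0.22 RPKM with R1881 and MEL-6, 0.652 ± 0.081 RPKM with R1881 and 1.15 ± 0.27 RPKM in vehicle (SD, n = 3 each). Its log2 change was 0.90 ± 0.15 for R1881 with MEL-6 against R1881 (adjusted p = 0.000558). For R1881 against vehicle it was -0.50 ± 0.15 (adjusted p = 0.0195), a call lost without R1881 replicate 1 (adjusted p = 0.0535) or 2 (0.0661), or vehicle replicate 1 (0.0653) or 2 (0.0694). ESR1 was listed at 0 in all 9 libraries, and PGR and ESR2 were not above 0.0516 and 0.138 RPKM in any library.

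HSD11B2 converts cortisol to inactive cortisone and HSD11B1 does the reverse. HSD11B2 averaged 27.3 ± 0.99 RPKM with R1881 and MEL-6, 13.4 ± 0.819 RPKM with R1881 and 21.4 ± 1.92 RPKM in vehicle. It fell with R1881 (log2 change -0.66 ± 0.072, adjusted p = 4.08e-05), and was higher with MEL-6 added, both against R1881 (1.00 ± 0.072, adjusted p = 1.48e-06) and against vehicle (0.35 ± 0.072, adjusted p = 0.00379). HSD11B1 was not above 0.05 RPKM in any library. H6PD, which supplies the cofactor of HSD11B1, averaged 15.2 ± 1.13 RPKM with R1881 and MEL-6 and 11.5 ± 0.772 RPKM with R1881 (log2 change 0.38 ± 0.075, adjusted p = 0.00168).

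R1881 raised 4 of the 6 tested target genes, lowered TSC22D3 and left KLF9 uncalled. SGK1 passed the filter only through its 3 R1881 libraries and so had to differ, and the counts and medians over the 6 genes are given as description. Among all 13295 tested genes, 45.8% were called in either direction in this comparison, 14.5% higher and 31.3% lower. The groups did not overlap for 5 of the 6 genes, against 57.9% of all tested genes, and of these 4 were higher, against 18.0%, and 1 lower, against 39.9%. The median log2 change was 0.93 over the 6 genes and -0.12 over all tested genes. Under median-of-ratios scaling the median of all genes was -0.0095 in place of -0.12, so changes are also given relative to it. Relative to the median gene the 6 changes were 4.40 for SGK1, 2.08 for ZBTB16, 1.49 for CEBPD, 0.62 for DUSP1, 0.082 for KLF9 and -0.66 for TSC22D3. Calls over all genes were 68.3% downward, against 47.7% with that scaling.

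Adding MEL-6 to R1881 lowered 5 of the 6 genes and raised TSC22D3. Over all tested genes 52.0% were called, 31.4% higher and 20.6% lower, and the groups did not overlap for 6 of the 6 genes, against 59.8% of all genes. Of these 1 was higher, against 35.8%, and 5 were lower, against 23.9%. The median log2 change was -0.52 over the 6 genes and 0.075 over all tested genes. Calls over all genes were 39.6% downward, against 53.7% with median-of-ratios scaling. In cells with R1881 and MEL-6, 3 of the 6 genes were still above vehicle, 1 was below it and 2 were not called, against 38.0% of all tested genes called, 17.2% higher and 20.8% lower. The groups did not overlap for 4 of the 6 genes, against 46.5% of all genes, 3 of them higher, against 21.6%, and 1 lower, against 24.9%. The median log2 change in this comparison was 0.22 over the 6 genes and -0.012 over all genes. Here 54.7% of calls over all genes were downward, against 44.1% with upper-quartile scaling. The 3 comparisons share libraries, and their values are given side by side.

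**Figure D1:**
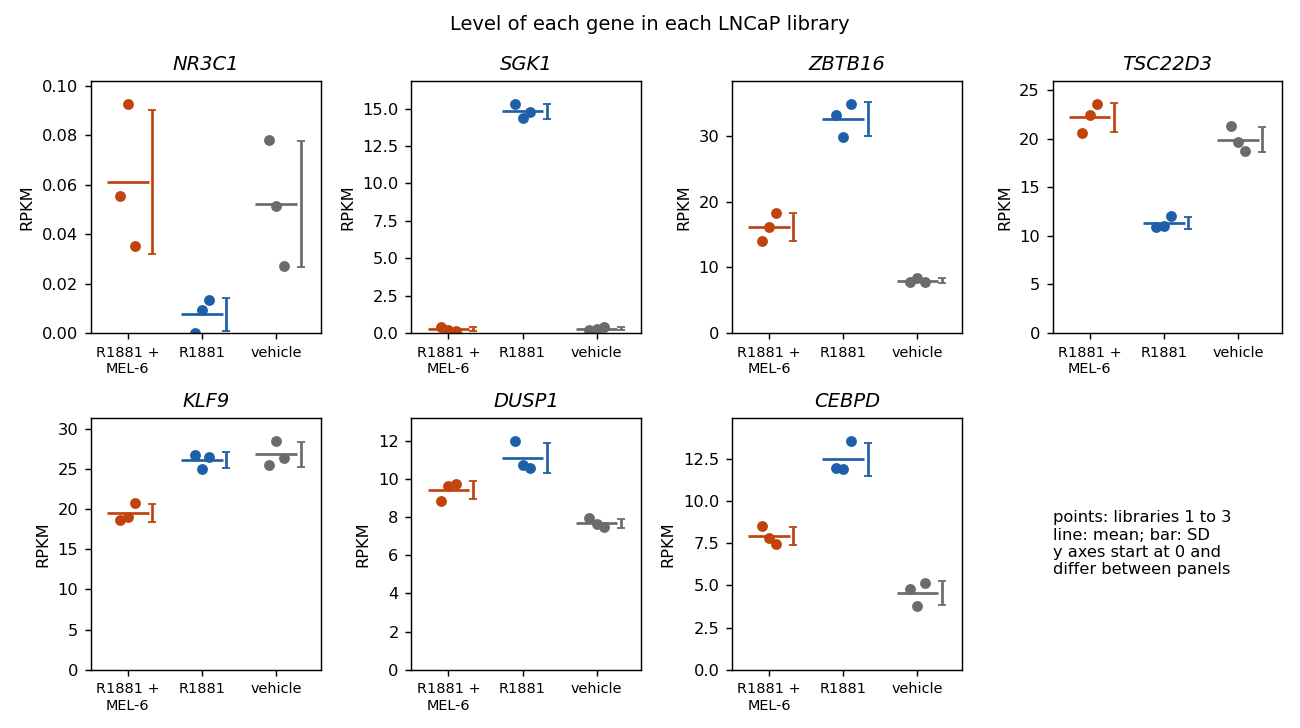
RPKM of each of the 7 genes in each library (points, replicates 1 to 3), grouped from left to right as R1881 with MEL-6, R1881 and vehicle, with a line at each group mean and a bar for the SD (n = 3). Each axis starts at 0 and has its own range. SGK1 stands between 14.3 and 15.3 RPKM with R1881 and between 0.117 and 0.404 RPKM in the 6 other libraries.

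SGK1 encodes the serum- and glucocorticoid-regulated kinase, which acts on sodium channels and cell survival (chromosome 6, 134490384 to 134639196). Its levels were 0.404, 0.225 and 0.117 RPKM with R1881 and MEL-6, 15.3, 14.3 and 14.8 RPKM with R1881, and 0.199, 0.30 and 0.378 RPKM in vehicle. All 3 R1881 libraries stood far above the other 6, and the groups with MEL-6 and vehicle overlapped. R1881 against vehicle gave a log2 change of 4.28 ± 0.15 (SE, 95% interval 3.95 to 4.61, adjusted p = 6.35e-09), a 50.6-fold ratio of means, and it ranked 6 by absolute change among all tested genes. R1881 with MEL-6 against R1881 gave -4.37 ± 0.15 (interval -4.70 to -4.04, adjusted p = 7.23e-09) and ranked 5. Against vehicle the MEL-6 group differed by -0.094 ± 0.15 (interval -0.42 to 0.24, adjusted p = 0.654). All 6 of those other libraries were below the filter of 0.5 RPKM, which the gene passed only through the R1881 libraries. By a step size found in those 6 libraries, the values rest on about 27 reads over the 3 MEL-6 libraries and 32 reads in vehicle, whole within 0.05 reads in 5 of the 6, with vehicle replicate 2 at 8.84. With so few reads a difference between the MEL-6 and vehicle groups within that interval was not detectable at this depth. The interval is on the log2(RPKM + 0.5) scale, and the added 0.5 RPKM exceeds the level in each of those libraries. It therefore understates the size of the relative differences in RPKM that were not detectable.

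ZBTB16, a zinc finger repressor also known as PLZF (chromosome 11, 113930431 to 114121398), followed with a smaller change and did not fall back to vehicle. Its levels were 14.0, 16.1 and 18.4 RPKM with R1881 and MEL-6, 33.3, 29.9 and 35.0 RPKM with R1881, and 7.83, 8.42 and 7.75 RPKM in vehicle. The MEL-6 libraries lay between the R1881 and vehicle libraries, with no overlap between any groups. The log2 change was 1.96 ± 0.094 for R1881 against vehicle (adjusted p = 7.46e-08, 4.09-fold), -1.0 ± 0.094 for R1881 with MEL-6 against R1881 (adjusted p = 1.07e-05) and 0.96 ± 0.094 for R1881 with MEL-6 against vehicle (adjusted p = 3.00e-05).

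CEBPD, a basic leucine zipper factor of inflammation and differentiation (chromosome 8, 48649476 to 48650726), showed the same order of groups. Its levels were 8.50, 7.83 and 7.47 RPKM with R1881 and MEL-6, 11.9, 11.9 and 13.6 RPKM with R1881, and 4.76, 3.76 and 5.14 RPKM in vehicle. Again no groups overlapped, with the MEL-6 libraries in the middle. The log2 change was 1.37 ± 0.11 for R1881 against vehicle (adjusted p = 2.84e-06, 2.74-fold), -0.62 ± 0.11 for R1881 with MEL-6 against R1881 (adjusted p = 0.000664) and 0.75 ± 0.11 for R1881 with MEL-6 against vehicle (adjusted p = 0.000376).

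DUSP1, a phosphatase that switches off MAP kinases (chromosome 5, 172195093 to 172198203), moved least of the 4 genes that rose. Its levels were 8.85, 9.64 and 9.73 RPKM with R1881 and MEL-6, 12.0, 10.7 and 10.5 RPKM with R1881, and 7.92, 7.62 and 7.45 RPKM in vehicle. The groups did not overlap, but the lowest R1881 library was close to the highest MEL-6 one. The log2 change was 0.50 ± 0.069 for R1881 against vehicle (adjusted p = 0.000203, 1.45-fold) and 0.28 ± 0.069 for R1881 with MEL-6 against vehicle (adjusted p = 0.00965). For R1881 with MEL-6 against R1881 it was -0.22 ± 0.069 (adjusted p = 0.0196), and that call was lost without R1881 replicate 1 (log2 change -0.17, adjusted p = 0.0876) or without MEL-6 replicate 1 (-0.18, adjusted p = 0.0579).

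TSC22D3 encodes the glucocorticoid-induced leucine zipper protein, GILZ, which dampens inflammatory signalling (chromosome X, 106956451 to 107019017), and it moved the opposite way. Its levels were 20.6, 22.5 and 23.6 RPKM with R1881 and MEL-6, 10.9, 11.1 and 12.1 RPKM with R1881, and 21.3, 19.7 and 18.8 RPKM in vehicle. The 3 R1881 libraries were the lowest, and the MEL-6 and vehicle libraries overlapped. The log2 change was -0.79 ± 0.071 for R1881 against vehicle (adjusted p = 9.92e-06, 0.570 times the vehicle level) and 0.94 ± 0.071 for R1881 with MEL-6 against R1881 (adjusted p = 2.20e-06, 1.96-fold). Against vehicle the MEL-6 group differed by 0.15 ± 0.071 (interval -0.0037 to 0.31, adjusted p = 0.114), which was past the threshold with upper-quartile scaling (0.20, adjusted p = 0.0356) and without MEL-6 replicate 1 (0.21, adjusted p = 0.0467). The neuroendocrine marker sum above, mostly ENO2, was also lowest with R1881, and its part in the result was not tested. Unlike TSC22D3, this sum was higher in every MEL-6 library than in any vehicle library. The 2 tested neuroendocrine markers did not move together. For R1881 against vehicle they changed by -0.62 and 0.25, with 1 called lower and 1 uncalled. With MEL-6 against R1881 the lowest and highest changes were -0.15 and 0.99, with 1 called higher and 1 uncalled. NCBP2L has exon bases on the opposite strand of TSC22D3 in a GENCODE annotation, and as strand use is not given in the sources used here, reads of the 2 genes cannot be told apart.

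KLF9, a zinc finger factor induced by glucocorticoid and thyroid hormone (chromosome 9, 72999513 to 73029573), was the only tested member that R1881 left uncalled. Its levels were 18.6, 19.1 and 20.8 RPKM with R1881 and MEL-6, 26.8, 24.9 and 26.5 RPKM with R1881, and 25.5, 28.5 and 26.4 RPKM in vehicle. The R1881 and vehicle libraries overlapped, and all 3 MEL-6 libraries were below both. R1881 against vehicle gave -0.038 ± 0.062 (interval -0.18 to 0.10, adjusted p = 0.645), which was 0.081 with median-of-ratios scaling and 0.0060 without vehicle replicate 2. R1881 with MEL-6 gave -0.41 ± 0.062 against R1881 (adjusted p = 0.00031) and -0.45 ± 0.062 against vehicle (adjusted p = 0.000338).

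**Figure D2:**
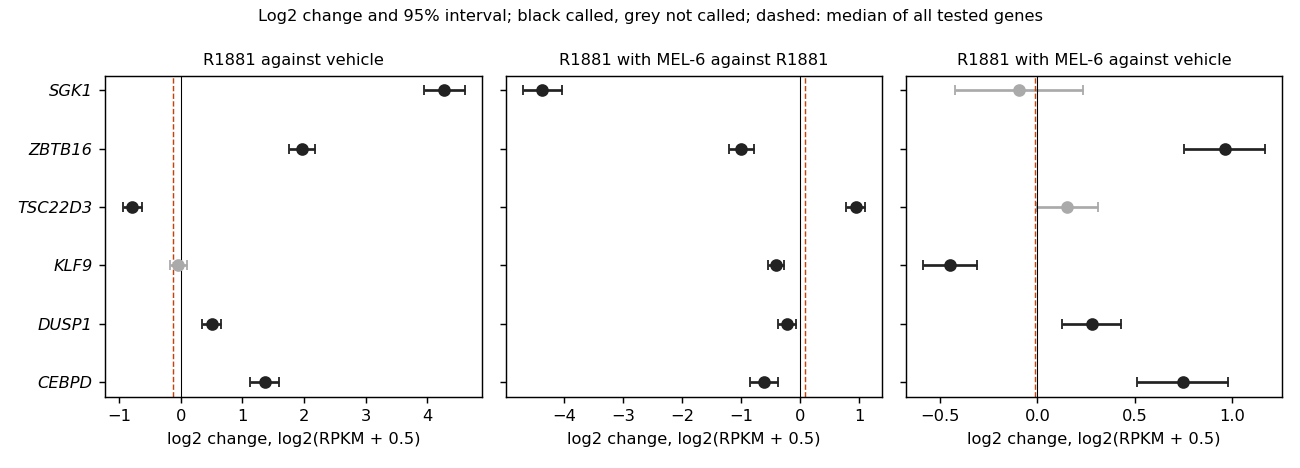
log2 change with its 95% interval for the 6 tested genes in the 3 comparisons. Black points are called and grey ones not, the solid line marks no change and the dashed line the median of all tested genes. SGK1 spans 4.28 for R1881 against vehicle and -4.37 for R1881 with MEL-6 against R1881, and TSC22D3 has the opposite sign to it in both.

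The order of levels per length differed between groups. With R1881 and MEL-6, TSC22D3 and KLF9 were highest with overlapping ranges, then ZBTB16, DUSP1, CEBPD, SGK1 and NR3C1. With R1881 the order was ZBTB16, KLF9, SGK1, then CEBPD, TSC22D3 and DUSP1, whose neighbouring ranges overlap, and NR3C1. In vehicle KLF9 was highest, followed by TSC22D3, then ZBTB16 and DUSP1 with overlapping ranges, CEBPD, SGK1 and NR3C1. SGK1 thus stood next to last with R1881 and MEL-6 and in vehicle, but above CEBPD, TSC22D3 and DUSP1 with R1881.

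A list of 30 other glucocorticoid-responsive genes, of which 23 were tested, held 16 higher, 3 lower and 4 uncalled genes for R1881 against vehicle. Its median log2 change was 0.85. For R1881 with MEL-6 against R1881 it held 6 higher, 15 lower and 2 uncalled genes, with a median of -0.58. For R1881 with MEL-6 against vehicle it held 16 higher, 1 lower and 6 uncalled, with a median of 0.43. Of all tested genes, 14.5% were called higher and 31.3% lower for R1881 against vehicle. With MEL-6 against R1881 these shares were 31.4% and 20.6%, and with MEL-6 against vehicle 17.2% and 20.8%. The same shares stand beside the lists below. All lists were chosen with earlier results of these data known, so their counts are given as description. FKBP5, a chaperone partner of steroid receptors, averaged 7.99 ± 0.212 RPKM with R1881 and MEL-6, 212 ± 1.35 RPKM with R1881 and 9.53 ± 0.315 RPKM in vehicle, and it was the 1 gene lower than in vehicle with MEL-6 (log2 change -0.24 ± 0.047, adjusted p = 0.00285). ERRFI1, a feedback inhibitor of EGF receptor signalling, averaged 17.3 ± 0.494 RPKM with R1881 and MEL-6, 167 ± 1.95 RPKM with R1881 and 11.3 ± 0.59 RPKM in vehicle. SNAI2, a repressor of epithelial genes, averaged 0.869 ± 0.246 RPKM with R1881 and MEL-6, 6.84 ± 0.051 RPKM with R1881 and 0.111 ± 0.052 RPKM in vehicle. It changed by 3.59 ± 0.14 on the log2 scale with R1881 and by -2.44 ± 0.14 when MEL-6 was added. With MEL-6 it was still called above vehicle (1.15 ± 0.14, adjusted p = 0.000154). Its vehicle level was near the floor, and the change with R1881 ranged from 2.82 to 5.07 across the alternatives tried. The 6 genes that rose with MEL-6 against R1881 included MT2A and MT1X, metal-binding metallothioneins. MT2A averaged 383 ± 54.4 RPKM with R1881 and MEL-6, 104 ± 7.65 RPKM with R1881 and 141 ± 15.7 RPKM in vehicle, and fell with R1881 (log2 change -0.43 ± 0.11, adjusted p = 0.00743). Metallothionein genes are near copies of each other, and how reads shared between them were counted is not given in the sources used here.

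**Figure D3:**
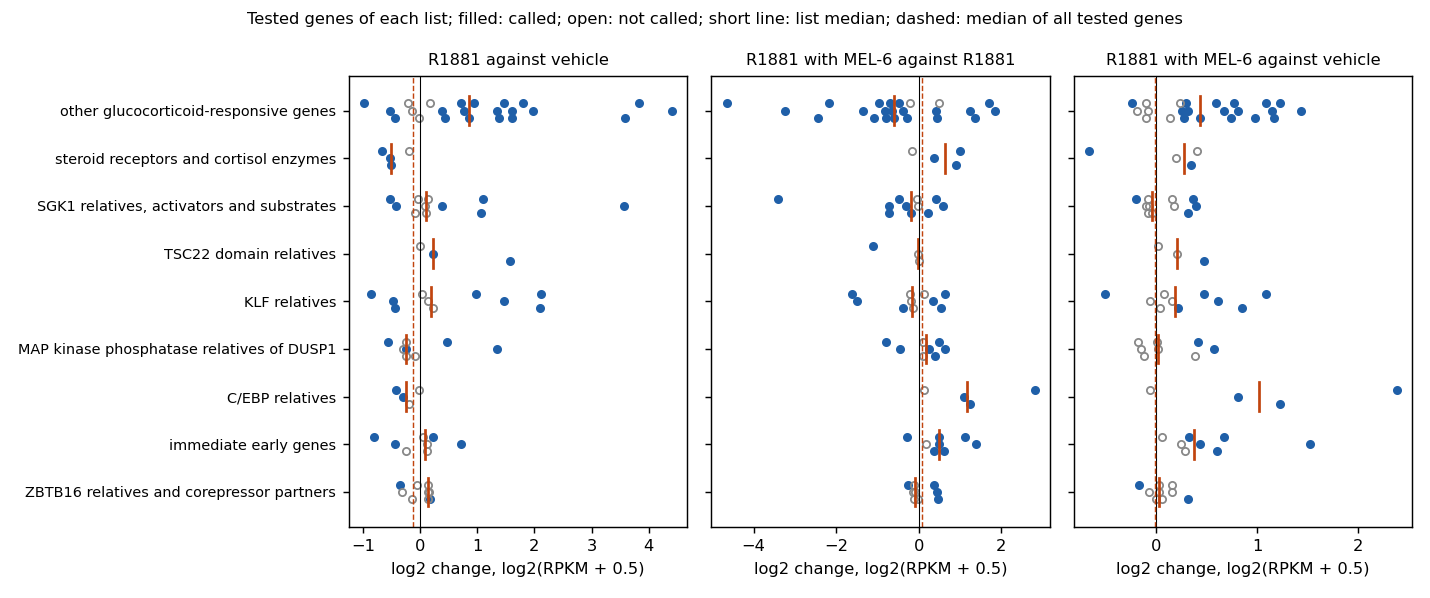
log2 changes of the tested genes of each list in the 3 comparisons. Filled points are called and open ones not, short lines are list medians and the dashed line is the median of all tested genes. The other glucocorticoid-responsive genes have a median of 0.85 for R1881 against vehicle and -0.58 for R1881 with MEL-6 against R1881.

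Among 13 relatives, activators and substrates of SGK1, 11 were tested, and 4 rose, 2 fell and 5 were uncalled for R1881 against vehicle (median log2 change 0.11). With MEL-6 against R1881, 3 rose, 6 fell and 2 were uncalled (median -0.18), and against vehicle 3 rose, 1 fell and 7 were uncalled (median -0.048). NDRG1, an SGK1 substrate, averaged 13.4 ± 0.373 RPKM with R1881 and MEL-6, 147 ± 7.56 RPKM with R1881 and 12.0 ± 0.835 RPKM in vehicle. Its log2 change was 3.56 ± 0.061 with R1881 (adjusted p = 5.08e-11) and -3.41 ± 0.061 when MEL-6 was added (adjusted p = 9.31e-11). NEDD4L, a ubiquitin ligase that SGK1 holds back from sodium channels, changed by 1.07 ± 0.056 and -0.71 ± 0.056 in the same comparisons (adjusted p = 1.59e-07 and 3.16e-06). SCNN1A, the channel subunit it acts on, fell with R1881 (-0.52 ± 0.062, adjusted p = 7.24e-05) and was higher with MEL-6 than with R1881 (0.42 ± 0.062, adjusted p = 0.000267). The kinase SGK3 had 5.98 ± 0.727 RPKM with R1881 and MEL-6, 10.1 ± 0.959 RPKM with R1881 and 4.44 ± 0.587 RPKM in vehicle, and changed by 1.11 ± 0.11 and -0.72 ± 0.11 (adjusted p = 2.35e-05 and 0.0004).

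All 3 relatives of TSC22D3 that share its TSC22 domain were tested, and for R1881 against vehicle 2 were higher, 0 lower and 1 uncalled (median log2 change 0.22). TSC22D1 averaged 53.9 ± 1.48 RPKM with R1881 and MEL-6, 116 ± 2.15 RPKM with R1881 and 38.8 ± 2.11 RPKM in vehicle, so that it was highest with R1881, where TSC22D3 was lowest. Its log2 change was 1.57 ± 0.051 for R1881 against vehicle (adjusted p = 3.8e-09) and -1.10 ± 0.051 for R1881 with MEL-6 against R1881 (adjusted p = 6.45e-08). The call of the other gene, TSC22D4 (0.22 ± 0.083, adjusted p = 0.0496), was lost without any 1 of R1881 replicates 1 to 3, vehicle replicates 1 to 3 or MEL-6 replicate 2 (adjusted p 0.0527 to 0.178), and with no filter (0.0774). With MEL-6 against R1881, 0 were higher, 1 lower and 2 uncalled (median -0.021), and against vehicle 1 was higher and 2 were uncalled (median 0.20).

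Of 16 relatives of KLF9, 10 were tested, and for R1881 against vehicle 4 rose, 3 fell and 3 were uncalled (median log2 change 0.19). With MEL-6 against R1881, 3 rose, 3 fell and 4 were uncalled (median -0.16), and against vehicle 5 rose, 1 fell and 4 were uncalled (median 0.19). KLF4 and KLF5, zinc finger factors of epithelial cells, rose with R1881 by 2.11 ± 0.095 and 2.09 ± 0.12 and had changes of -1.5 ± 0.095 and -1.62 ± 0.12 on the log2 scale when MEL-6 was added. KLF15, a partner of the glucocorticoid receptor in metabolic genes, averaged 12.9 ± 0.465 RPKM with R1881 and MEL-6, 16.9 ± 0.971 RPKM with R1881 and 5.84 ± 0.931 RPKM in vehicle. KLF10 fell with R1881 (log2 change -0.85 ± 0.11, adjusted p = 9.73e-05).

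Of 9 other MAP kinase phosphatases, 8 were tested, with 2 higher, 2 lower and 4 uncalled for R1881 against vehicle (median log2 change -0.24). With MEL-6 against R1881, 4 were higher, 2 lower and 2 uncalled (median 0.18), and against vehicle 2 were higher and 6 uncalled (median 0.012). DUSP4, a nuclear phosphatase, had 5.46 ± 0.851 RPKM with R1881 and MEL-6, 9.70 ± 0.595 RPKM with R1881 and 3.56 ± 0.929 RPKM in vehicle, and rose with R1881 (log2 change 1.35 ± 0.16, adjusted p = 6.22e-05). Its call for R1881 with MEL-6 against vehicle (0.57 ± 0.16, adjusted p = 0.0166) was lost without MEL-6 replicate 2 (adjusted p = 0.0536) or 3 (0.0532), or vehicle replicate 2 (0.0527).

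Of 5 relatives of CEBPD, 4 were tested, and for R1881 against vehicle 0 rose, 2 fell and 2 were uncalled (median log2 change -0.24). With MEL-6, 3 rose and 1 was uncalled both against R1881 (median 1.18) and against vehicle (median 1.02). DDIT3, the stress factor CHOP, averaged 105 ± 4.03 RPKM with R1881 and MEL-6, 14.6 ± 0.653 RPKM with R1881 and 19.7 ± 0.728 RPKM in vehicle. Its log2 change was 2.81 ± 0.054 for R1881 with MEL-6 against R1881 (adjusted p = 1.63e-10) and 2.39 ± 0.054 against vehicle (adjusted p = 5.98e-09). CEBPB, a factor of the acute phase response, averaged 25.9 ± 1.94 RPKM with R1881 and MEL-6, 10.6 ± 1.55 RPKM with R1881 and 10.8 ± 0.946 RPKM in vehicle. It was called higher with MEL-6 against R1881 (1.25 ± 0.10, adjusted p = 3.88e-06), the comparison in which CEBPD fell.

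**Figure D4:**
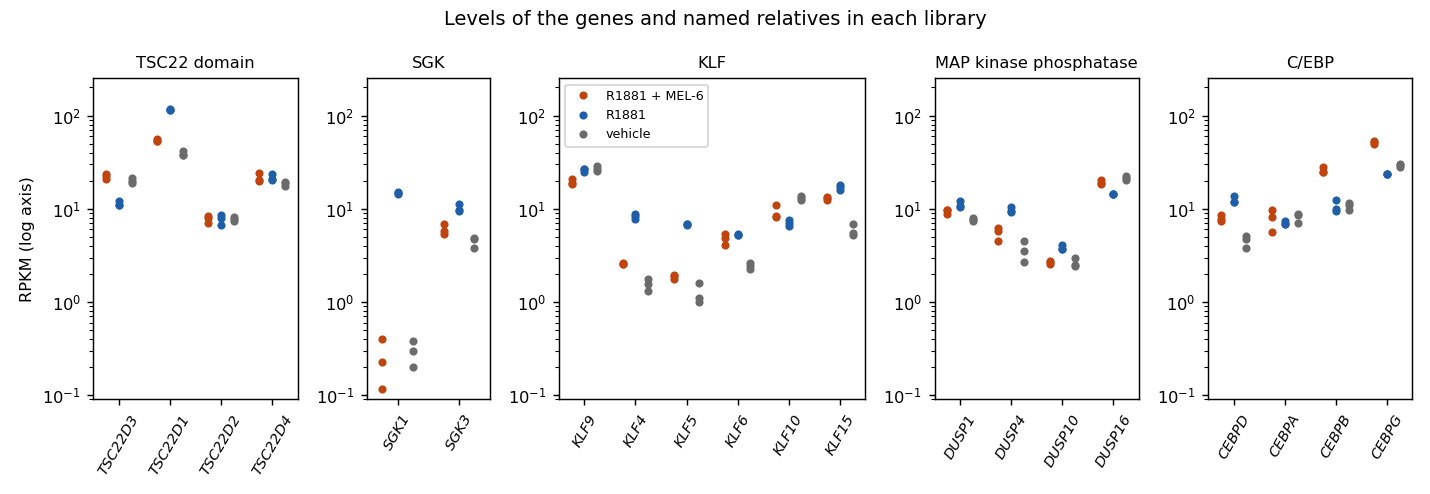
RPKM on a log axis of 5 of the genes and some of their family relatives in each library (points), grouped from left to right as R1881 with MEL-6, R1881 and vehicle. TSC22D1 is highest with R1881, averaging 116 RPKM, where TSC22D3 is lowest.

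Immediate early genes answer growth and stress signals quickly, as DUSP1 does, and 8 of 14 were tested. For R1881 against vehicle 2 rose, 2 fell and 4 were uncalled (median log2 change 0.084). With MEL-6 against R1881, 6 rose, 1 fell and 1 was uncalled (median 0.49), and against vehicle 5 rose and 3 were uncalled (median 0.38). ATF3, a stress-induced factor, averaged 37.7 ± 1.7 RPKM with R1881 and MEL-6, 14.1 ± 0.729 RPKM with R1881 and 12.8 ± 0.66 RPKM in vehicle. Its log2 change was 1.39 ± 0.062 for R1881 with MEL-6 against R1881 (adjusted p = 4.96e-08). BTG2, an inhibitor of cell division, fell with R1881 (-0.80 ± 0.053, adjusted p = 8.45e-07) and was higher with MEL-6 than with R1881 (1.12 ± 0.053, adjusted p = 6.65e-08).

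Of 10 relatives and corepressor partners of ZBTB16, 9 were tested and 7 were uncalled for R1881 against vehicle, with 1 higher and 1 lower (median log2 change 0.14). The call of the gene that rose, the corepressor scaffold SIN3A (0.17 ± 0.062, adjusted p = 0.0437), was lost without R1881 replicate 1, 2 or 3, MEL-6 replicate 2 or vehicle replicate 2 or 3 (adjusted p 0.0525 to 0.152). With MEL-6 against R1881, 3 rose, 1 fell and 5 were uncalled (median -0.081), and against vehicle 1 rose, 1 fell and 7 were uncalled (median 0.028). The gene that fell there, the deacetylase HDAC3 (-0.17 ± 0.055, adjusted p = 0.0311), was not called without MEL-6 replicate 1 or 3 or vehicle replicate 1 or 2 (adjusted p 0.0609 to 0.0999), with upper-quartile scaling (0.0971) or with only the 2 groups fitted (0.0574). BCL6, a repressor of the same BTB zinc finger class, averaged 16.3 ± 0.43 RPKM with R1881 and MEL-6, 11.9 ± 0.381 RPKM with R1881 and 13.1 ± 1.03 RPKM in vehicle. BCL6, CEBPB, FOXO3, KLF15, SCNN1A and ZFP36 each stand in 2 of these lists.

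The genes whose profiles over the 9 libraries lay nearest to each member were ranked by the root mean square difference between mean-centred log2(RPKM + 0.5) values. SGK1 lay nearest to FKBP5 at 0.174, then UGT2B28 at 0.24 and ORM1 at 0.255, both genes with near-identical copies whose reads may be shared. Outside the R1881 libraries UGT2B28 was at most 0.294 RPKM and ORM1 at most 0.193 RPKM. Like SGK1 they passed the filter of 0.5 RPKM only through the R1881 libraries, so their likeness to it follows in part from that filter. ZBTB16 lay nearest to BHLHA15 at 0.106, IRS2 at 0.110 and KCNN2 at 0.118. CEBPD lay nearest to FICD at 0.134, PPFIBP2 at 0.137 and ZBTB10 at 0.143. DUSP1 lay nearest to ANXA4 at 0.0501, PERP at 0.0556 and STT3A at 0.0579. TSC22D3 lay nearest to C14orf4 at 0.0611, QSOX1 at 0.0650 and MAPT at 0.0655, and KLF9 to CCT7 at 0.0411, DRG1 at 0.0545 and USP14 at 0.0582. Genes that move little leave smaller differences to their neighbours, so these distances are not comparable between members.

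**Figure D5:**
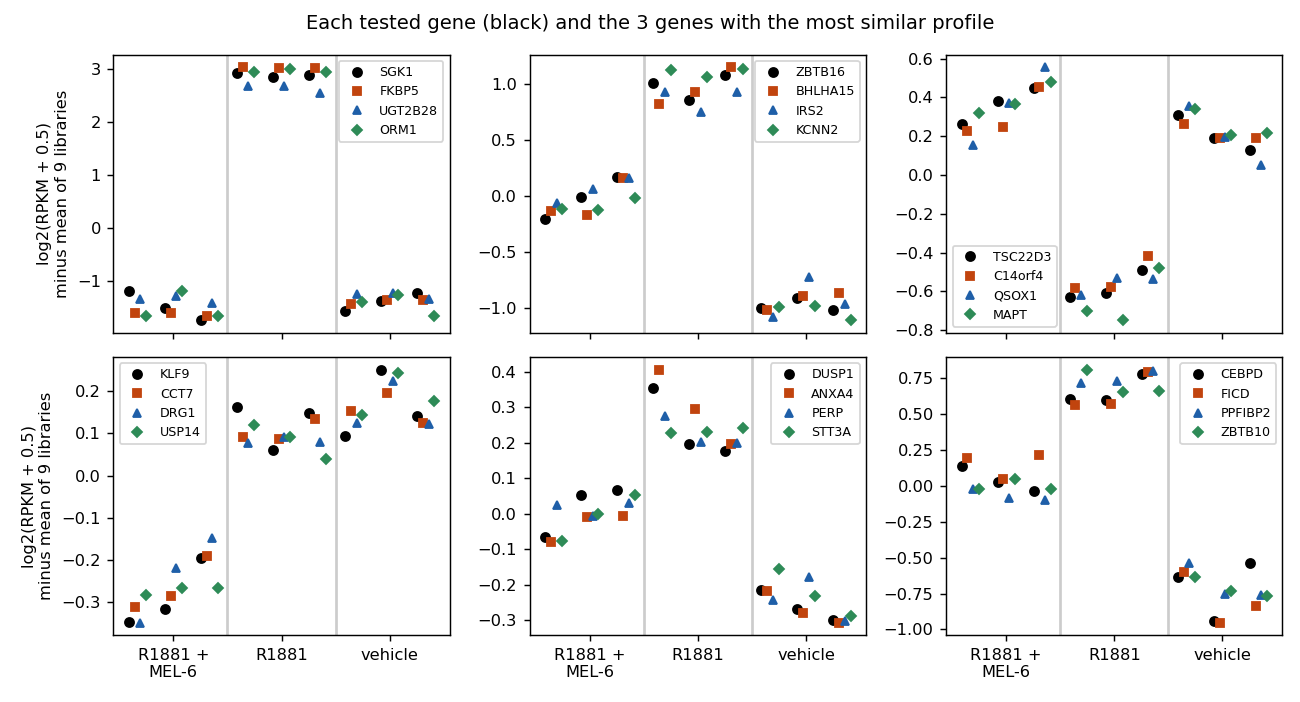
log2(RPKM + 0.5) minus its mean over the 9 libraries, for each of the 6 tested genes (black circles) and its 3 nearest genes (coloured symbols), with libraries grouped from left to right as R1881 with MEL-6, R1881 and vehicle. SGK1 and FKBP5, whose profiles differ by 0.174, are both high in the 3 R1881 libraries.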

How the data were processed

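Gene-level RPKM values of 9 libraries were deposited by the authors in 1 table. The submitters' processing notes name CASAVA 1.8 and the hg19 (GRCh37) build; the aligner's settings, strand use and the treatment of reads shared between genes are not given in the sources used here. Levels on the log2 scale were computed here from the deposited RPKM as log2(RPKM + 0.5), which understates changes of low genes. The 13295 of 25142 entries that reached 0.5 RPKM in 3 or more libraries were fitted in 1 limma model of the 3 groups (limma 3.58.1 in R 4.3.3, mean-dependent prior, two-sided), with Benjamini-Hochberg adjustment over all tested genes and calls at an adjusted p below 0.05. The labels call the replicates biological and say no more of how they were kept apart. The p-values therefore set group differences against the spread between these samples within the 3 groups, whatever that spread covers. RPKM sums to 350381 to 365815 per library and gives no read total. Relative depth came from the most common ratio of low values to those of vehicle replicate 1. With these depths, whole multiples of 1 step held for 41.4% of 2889 low genes, and for 0.0% with permuted depths. The depths were themselves taken from low genes, so these shares are no independent check of them. The tolerance was 0.005 steps, or wider where rounding required it. Replicates of a group were no copies of each other.

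The 7 genes and the 9 lists were chosen with earlier results of these data known. Named beside the 7 genes are up to 4 called genes per list and comparison with at least 1 mean RPKM in the higher group, the steroid receptor list, and the 3 nearest genes to each tested member; some genes that the rule selects are not reported here. Alternatives tried were other pseudocounts, filters and scalings, robust moderation, fits of 2 groups only, a replicate block and each library left out. The model was tested on simulated data.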

Additional observations from a re-analysis of the deposited data

How the results depend on the processing

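Each result was recomputed under 18 alternatives where they applied. Of the log2 changes of the 6 tested genes, 317 kept their direction and side of the threshold, 2 lost a call and 2 gained one, those of DUSP1 and TSC22D3 given above, and 3 reversed, none of them called. KLF9 for R1881 against vehicle was 0.081 with median-of-ratios scaling and -0.072 to 0.0060 when 1 library was left out, above 0 without vehicle replicate 2. SGK1 for R1881 with MEL-6 against vehicle was -0.24 to 0.037 when 1 library was left out, above 0 without MEL-6 replicate 3. The causes were not tested. The SGK1 change for R1881 against vehicle ranged from 3.61 with the largest to 5.27 with the smallest pseudocount. With median-of-ratios scaling 2535 genes were called lower with R1881 against vehicle, in place of 4155. Leaving out a library gave 4990 to 6609 called genes for R1881 against vehicle, 5969 to 6915 for R1881 with MEL-6 against R1881 and 4062 to 4865 for R1881 with MEL-6 against vehicle, and 5, 5 to 6 and 4 to 5 called members. Of the changes of named list genes 1436 kept their call and 58 lost it, and of the calls counted per list 458 stayed within 1.5 times and 28 did not, all in the steroid receptor, TSC22, phosphatase and ZBTB16 lists.

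Replicate numbers showed no clear sign of pairing. Deviations from the group means correlated at -0.197 to 0.198 between same-numbered libraries of different groups. For 1 of 9 libraries, the own number correlated best in both other groups. With 3 libraries per group these values cannot settle whether the samples were paired. With the replicate block, 5648, 6557 and 4503 genes were called in the 3 comparisons, with 5, 6 and 4 members. The block ended no call of a member, but ended those of TSC22D4 (adjusted p = 0.0614) and SIN3A (adjusted p = 0.0749) for R1881 against vehicle. Depth limits NR3C1 and the low SGK1 values.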
